A study of Homo sapiens with 6 samples.

Results

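SR proteins are splicing factors that carry a domain rich in arginine and serine; they bind exons and help the spliceosome to choose splice sites. CLK and SRPK kinases phosphorylate that domain, and much of this machinery is stored in nuclear speckles, bodies built around the scaffold proteins SON and SRRM2. Many SR protein genes limit their own output through exons or introns whose retention sends the transcript to nonsense-mediated decay or keeps it in the nucleus. The 35 genes described here are SR proteins, their kinases and speckle-associated splicing factors, and all 35 were present among the 24305 gene symbols of the deposited table. They are a named list, chosen by function with the talazoparib over control differences of these same libraries already known, so the fold changes and calls below are a description and support nothing by themselves.

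The libraries measured total RNA of DU 145, an established human prostate cancer line; the study describes it as castration-resistant and lacking intact homologous recombination repair. The tested cells had talazoparib, an inhibitor of PARP1 and PARP2, for 48 h (3 libraries, numbered 1 to 3), and the controls had the agent written DMOS in the labels, taken here as DMSO, for 48 h (3 libraries). The study design names 5, 10 and 20 µM of talazoparib, and the labels do not tie a dose to these libraries; PC-3, the other line of the design, was not analysed here. No label says that the replicates were separate cultures, so errors and calls reflect how far these libraries differ, and that may be only technical. Library totals ran from 39123997 to 39585727 counts. The epithelial keratins KRT8 and KRT18 averaged 557 and 577 CPM with talazoparib and 583 and 526 CPM in controls, while CDH1 averaged 0.798 CPM with talazoparib and 1.37 CPM in controls. The keratin KRT19 was called higher, at 85.6, 100.5 and 88.1 CPM with talazoparib and 46.9, 39.3 and 39.4 CPM in controls (log2 fold change 1.13 ± 0.10). Libraries of both groups were uneven: counts of talazoparib 2 and 3 departed from each other by a chi-square of 29.9 per degree of freedom, and those of talazoparib 1 from talazoparib 2 and 3 by 13.1 and 11.9, while control 1 departed from controls 2 and 3 by 25.9 and 19.4, and controls 2 and 3 from each other by 5.02. Over the 35 genes control 1 lay a median of 0.12 below the mean of controls 2 and 3 on the log2 scale, against 0.01 below over all genes, and it was the lowest control for 21 of the 35. Talazoparib 3 lay a median of 0.08 above the other talazoparib libraries for these genes, and talazoparib 2 lay 0.08 below them and was the lowest of its group for 20 of the 35. Mitochondrial genes took 8.11% to 9.21% of counts with talazoparib and 9.82% to 10.2% in controls. Summed leukocyte markers (4 genes, PTPRC and CD3E at 0) ran from 1.49 to 2.21 CPM with talazoparib and from 0.852 to 1.04 CPM in controls. Almost all of that was CD14, which averaged 1.86 CPM with talazoparib and 0.918 CPM in controls and was called higher (log2 fold change 1.02). With the trend over GC content and length removed, as described below, CD14 was not called (0.55) and KRT19 was still called higher (0.56). Summed fibroblast markers (5 genes, COL1A2, DCN and LUM at 0) ran from 2.16 to 3.31 CPM with talazoparib and from 2.56 to 2.68 CPM in controls. Almost all of that was COL1A1, at 2.54 CPM with talazoparib and 2.55 CPM in controls. The part of these in the differences below was not tested.

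All 35 genes passed the filter on low counts. Levels below are CPM, each gene's reads relative to the TMM-adjusted library size, unless FPKM (per length) is named. A gene is called where edgeR's quasi-likelihood test over all 14452 genes gave a Benjamini-Hochberg adjusted p under 0.05. With talazoparib 25 of the 35 genes were called lower and 2 were called higher, where 29.9% of all genes tested were called lower, 26.8% higher and 56.7% in either direction. In 26 of the 35 all talazoparib libraries lay below all controls, and in 2 all lay above; over all genes those shares were 32.8% and 31.6%. The median log2 fold change of the 35 was -0.45 (range -2.29 to 0.28), and that of all genes was 0.00. A fall of at least 2-fold was called for 5 of the 35 (NKTR, CLK1, LUC7L3, SON and DYRK1A), against 9.75% of all genes. Summed over the 35 genes, levels were 3699.7, 3569.8 and 3794.5 CPM with talazoparib and 4481, 4746 and 4730.3 CPM in controls. In bulk RNA, fewer cells with a transcript and less of it per cell cannot be told apart.

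Fold changes in these libraries followed transcript GC content and deposited gene length across all genes, and the 35 genes lie on the side that was lower. The length was recovered per gene from counts and FPKM, so it need not be that of a single mRNA. Their transcripts had a median GC content of 43.3% and the genes a median deposited length of 4767 nt, where all genes tested had 49.4% and 3916 nt. Among genes with a GC content of 41.46% to 43.87%, a decile that holds that median, 61.6% were called lower and 4.2% higher. The log2 fold changes of the 35 genes are therefore also given from the same edgeR test after the trend of each library over GC content and length was taken out, called trend-removed below. In that fit 14 of the 35 were called lower and 5 higher, where 22.2% of the 13717 genes with GC content and length were called lower and 22.0% higher. The trend-removed median of the 35 was -0.06. Calls in the same direction in both fits were held by 11 of the 35 genes, and by 3592 of the 13717 genes. Opposite calls were made for 2 of the 35 (SRSF9 and SRSF11), and for 539 of the 13717. How much of each difference belongs to the trend and how much to the drug cannot be told apart, since the trend runs with the groups.

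**Figure D1:**
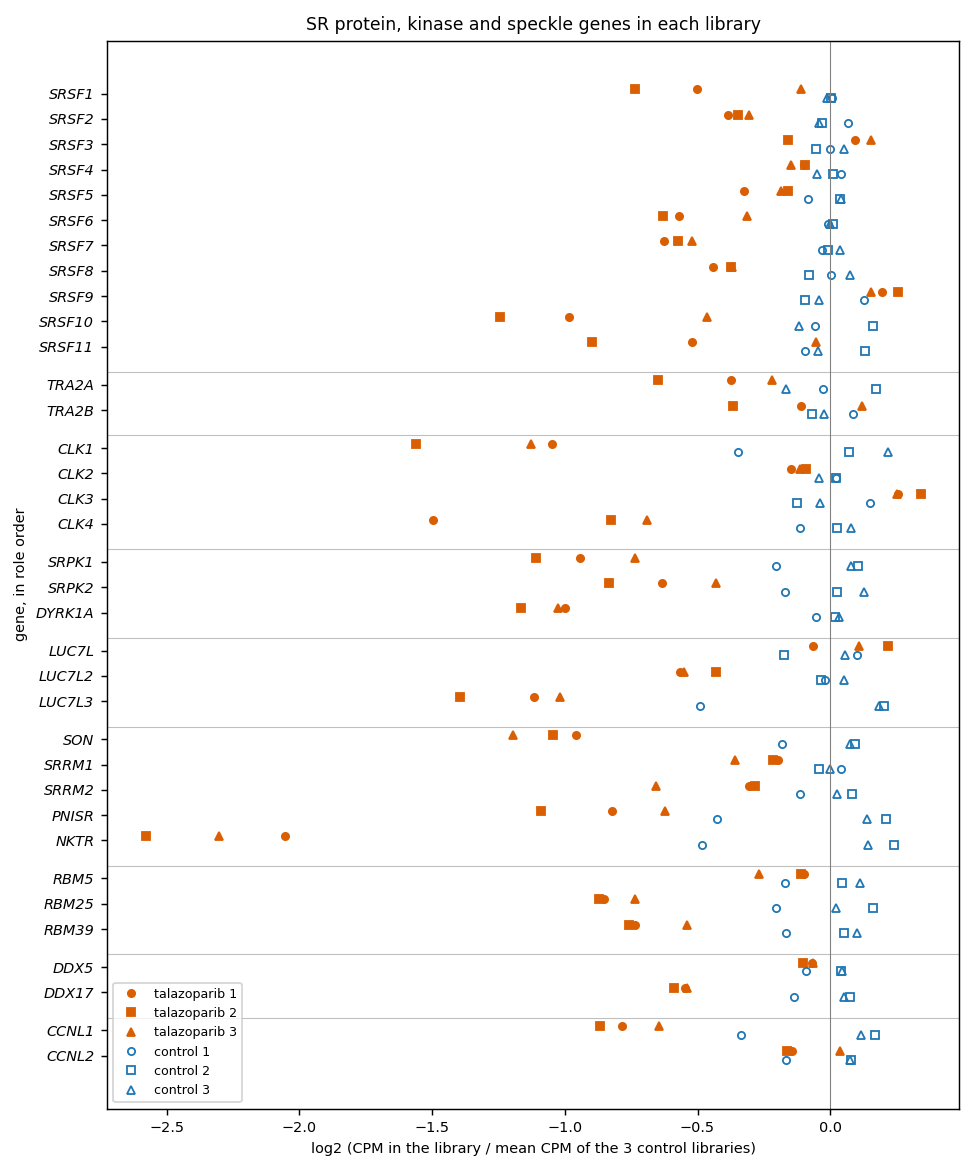
Each point is 1 library: the horizontal axis is log2 of its CPM over the mean CPM of the 3 control libraries, the vertical axis lists the 35 genes by role, filled symbols are talazoparib and open symbols control libraries 1 to 3. NKTR lies farthest to the left, CLK3 and SRSF9 have all talazoparib points right of all controls, and control 1 is the lowest control for 21 genes.

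Among the scaffold and arginine/serine-rich proteins of speckles, all 5 were called lower (median log2 fold change -0.83), and 3 of them were also called lower trend-removed. NKTR, a large cyclophilin with arginine/serine-rich stretches, stood at 3.25, 2.26 and 2.74 CPM with talazoparib and at 9.67, 15.9 and 14.9 CPM in controls. The groups were far apart, and control 1 was the control nearest to the talazoparib libraries. Its log2 fold change was -2.29 ± 0.21 (SE), the lowest of the 35, and -1.35 ± 0.14 trend-removed. SON, which holds speckles together, had 163, 154 and 138 CPM with talazoparib and 279, 338 and 334 CPM in controls. Every talazoparib library lay well below every control, with a log2 fold change of -1.06 ± 0.09 and -0.59 ± 0.05 trend-removed. SRRM2, the other core scaffold, had 473, 480 and 370 CPM with talazoparib and 540, 619 and 594 CPM in controls, a smaller shift in which talazoparib 3 was the lowest library. Its log2 fold change was -0.41 ± 0.10 and -0.31 ± 0.06 trend-removed. Its transcript has 56.2% GC and the gene a deposited length of 11686 nt, and with the length trend alone removed the value was 0.22 and not called. SRRM1, a splicing coactivator, had 75.2, 74.1 and 67.3 CPM with talazoparib and 88.7, 83.7 and 86.1 CPM in controls. Its groups did not overlap (-0.25 ± 0.08), and it was not called trend-removed (-0.02 ± 0.06). PNISR, a protein that binds the speckle protein pinin, had 12.4, 10.3 and 14.2 CPM with talazoparib and 16.3, 25.3 and 24.1 CPM in controls. Control 1 came close to talazoparib 3, the log2 fold change was -0.83 ± 0.17, and no call remained trend-removed (0.09 ± 0.10).

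The promoters of NKTR and SON, the gene with the lowest fold change and the core speckle scaffold with the lower fold change, and of the paralogous kinases CLK1 and CLK3, which were called in opposite directions are given here as sequence. The sequences span 250 bases before to 50 after the first start that RefSeq lists, on GRCh38.p14. NKTR lies at chr3:42600436-42600735 (+ strand), SON at chr21:33542788-33543087 (+), CLK1 at chr2:200864609-200864908 (-) and CLK3 at chr15:74608122-74608421 (+). Capitals mark matches to GGGCGG (the GC box), CCAAT (the CCAAT box), TATAAA (the TATA box), TGACG (the core of the cAMP response element) and CCGGAAG (an ETS core) on either strand; no matches overlap in these sequences.
NKTR: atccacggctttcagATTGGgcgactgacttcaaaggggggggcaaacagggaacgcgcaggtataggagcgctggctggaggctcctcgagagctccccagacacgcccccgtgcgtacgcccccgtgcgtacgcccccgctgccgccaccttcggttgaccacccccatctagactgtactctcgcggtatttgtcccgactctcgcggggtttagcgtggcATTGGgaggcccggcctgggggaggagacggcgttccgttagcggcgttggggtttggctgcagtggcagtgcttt
SON: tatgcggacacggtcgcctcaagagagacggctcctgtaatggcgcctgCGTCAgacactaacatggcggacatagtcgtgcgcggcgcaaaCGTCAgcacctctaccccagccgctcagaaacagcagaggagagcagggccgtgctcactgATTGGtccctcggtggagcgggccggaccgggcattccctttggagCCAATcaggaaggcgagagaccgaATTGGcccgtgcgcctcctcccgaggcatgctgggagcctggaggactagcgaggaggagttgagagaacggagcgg
CLK1: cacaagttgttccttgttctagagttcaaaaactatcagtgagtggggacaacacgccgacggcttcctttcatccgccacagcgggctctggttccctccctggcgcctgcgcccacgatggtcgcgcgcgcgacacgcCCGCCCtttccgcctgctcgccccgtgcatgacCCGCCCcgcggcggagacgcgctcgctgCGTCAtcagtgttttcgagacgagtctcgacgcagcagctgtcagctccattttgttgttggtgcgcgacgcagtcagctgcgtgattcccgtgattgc
CLK3: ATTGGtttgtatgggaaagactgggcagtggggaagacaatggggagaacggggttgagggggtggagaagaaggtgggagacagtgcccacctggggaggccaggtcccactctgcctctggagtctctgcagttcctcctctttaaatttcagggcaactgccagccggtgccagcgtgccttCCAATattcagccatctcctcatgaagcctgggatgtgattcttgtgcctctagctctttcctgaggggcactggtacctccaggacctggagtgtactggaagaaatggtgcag

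NKTR and CLK3 each had 2 CCAAT boxes and no GC box, SON had 3 CCAAT boxes and 2 TGACG cores, and CLK1 had 2 GC boxes and 1 TGACG core. Over the 32 of 35 genes with a promoter in the RefSeq table, 15 held a GC box (46.9%, against 70.6% of the 11447 promoters of genes tested), 12 a CCAAT box (37.5%, against 36.3%), 4 a TATA box (12.5%, against 5.31%), 15 a TGACG core (46.9%, against 34.1%) and 6 an ETS core (18.8%, against 19.1%). These shares describe letters in a window of the same length and were not tested. The windows differed in base content, with a median GC content of 62.8% over the 32 promoters and 65.7% over the 11447. The part of base content in the shares was not tested. The promoters shown were picked by fold change or call, so no reading is drawn from the match that NKTR and CLK3 share.

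The CLK kinases, nuclear enzymes that phosphorylate SR proteins and release them from speckles, were split. CLK1 had 2.73, 1.91 and 2.59 CPM with talazoparib and 4.44, 5.94 and 6.57 CPM in controls. All talazoparib libraries were lower, with a log2 fold change of -1.23 ± 0.21 and nearly the same value trend-removed (-1.10 ± 0.18). CLK4, the closest relative of CLK1, had 0.651, 1.04 and 1.14 CPM with talazoparib and 1.70, 1.87 and 1.94 CPM in controls. It was lower in every library (-0.96 ± 0.27) at the lowest level of the 35 in controls, 0.754 FPKM, and it was not called trend-removed (-0.42 ± 0.27). CLK3, a further paralogue, had 56.6, 60.0 and 56.4 CPM with talazoparib and 52.6, 43.4 and 46.1 CPM in controls. It was higher in every talazoparib library, by 0.28 ± 0.09 on the log2 scale and 0.34 ± 0.07 trend-removed, and the call was lost without control 2 (0.19) or control 3 (0.23). CLK2, another paralogue, had 43.1, 44.7 and 44.0 CPM with talazoparib and 48.4, 48.4 and 46.3 CPM in controls; its groups did not overlap, yet the difference was not called (-0.12 ± 0.08), and trend-removed it was called lower (-0.48 ± 0.06). Summed, the CLK kinases came to 103, 108 and 104 CPM with talazoparib and 107, 99.6 and 101 CPM in controls, ranges that overlap.

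All 3 of the other kinases were called lower. SRPK1, which phosphorylates SR proteins in the cytoplasm before their import into the nucleus, had 57.1, 50.9 and 65.9 CPM with talazoparib and 95.2, 118 and 116 CPM in controls. The gap between the groups exceeded the range within either one, and the call held in both fits (-0.92 ± 0.11, and -0.44 ± 0.06 trend-removed). SRPK2, its paralogue, had 32.7, 28.5 and 37.7 CPM with talazoparib and 45.2, 51.7 and 55.5 CPM in controls. It was lower in every library (-0.62 ± 0.11) and was not called trend-removed (0.10 ± 0.07). DYRK1A, a kinase of the same wider family as the CLKs, had 22.2, 19.8 and 21.8 CPM with talazoparib and 42.8, 44.9 and 45.5 CPM in controls. Replicates were tight and the groups about 2-fold apart (-1.06 ± 0.09), but its deposited length of 22892 nt is the longest of the 35, and trend-removed the value was -0.05 ± 0.09.

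Of the SR protein genes, 8 of 11 were called lower, 1 higher and 2 neither, with a median log2 fold change of -0.39. Summed, they came to 1663, 1595 and 1822 CPM with talazoparib and 1993, 1944 and 1955 CPM in controls. SRSF10, an SR protein that turns into a splicing repressor when dephosphorylated, had 35.6, 29.8 and 51.1 CPM with talazoparib and 67.7, 78.7 and 65.1 CPM in controls. Talazoparib 3 lay nearest to the controls; the log2 fold change was -0.86 ± 0.16, the lowest of the family, and 0.10 ± 0.09 trend-removed. SRSF7, which has a zinc knuckle beside its RNA-binding domain, had 77.4, 80.2 and 83.2 CPM with talazoparib and 117, 119 and 123 CPM in controls. Both groups were tight (-0.57 ± 0.07), and trend-removed the gene was not called (-0.06 ± 0.08). SRSF3, the smallest SR protein and the closest relative of SRSF7, had 332, 279 and 346 CPM with talazoparib and 312, 300 and 323 CPM in controls. Its groups overlapped (0.04 ± 0.09), whereas trend-removed it had the highest value of the 35 (0.64 ± 0.07) and was called higher. Its transcript, at 39.3% GC, falls in a decile (38.91% to 41.46% GC) of which 66.9% were called lower. SRSF9, a close relative of SRSF1, had 345, 360 and 335 CPM with talazoparib and 329, 282 and 293 CPM in controls. It was called higher (0.20 ± 0.08), but the call was lost without talazoparib 1 (0.21), talazoparib 2 (0.18), control 2 (0.12) or control 3 (0.15), and trend-removed it was called lower (-0.14 ± 0.04).

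SRSF1, first known as a factor that switches splice sites, had 246, 208 and 322 CPM with talazoparib and 349, 348 and 345 CPM in controls. The controls hardly varied while talazoparib 3 came close to them (-0.43 ± 0.13, and 0.19 ± 0.09 trend-removed, not called). SRSF11, an SR-related protein, showed the same library standing high, with 37.4, 28.8 and 51.6 CPM with talazoparib and 50.2, 58.7 and 52.0 CPM in controls. Its groups overlapped, its call as lower (-0.45 ± 0.17) was lost in 5 of the 6 fits that each left out 1 library, and trend-removed it was called higher (0.43 ± 0.10). SRSF6, which binds exon enhancers, had 93.4, 89.5 and 112 CPM with talazoparib and 138, 140 and 138 CPM in controls (-0.50 ± 0.09, and 0.11 ± 0.07 trend-removed). The speckle marker gene SRSF2 had 240, 246 and 254 CPM with talazoparib and 329, 307 and 305 CPM in controls, and SRSF8, its retrotransposed copy, had 40.4, 42.3 and 42.5 CPM with talazoparib and 54.9, 51.8 and 57.7 CPM in controls. Both were lower in every talazoparib library by similar amounts (-0.35 ± 0.07 and -0.39 ± 0.08), and trend-removed SRSF2 was still called (-0.15 ± 0.05) and SRSF8 was not (0.00 ± 0.08). SRSF5, of the same subfamily as SRSF6, had 121, 136 and 133 CPM with talazoparib and 143, 156 and 156 CPM in controls, a call (-0.22 ± 0.08) that was lost without talazoparib 1 (-0.17) or control 3 (-0.24) and was held trend-removed (-0.28 ± 0.06). SRSF4, the remaining member of that subfamily, had 95.2, 95.4 and 92.0 CPM with talazoparib and 105, 103 and 98.4 CPM in controls; every talazoparib library was lower, the difference was not called (-0.11 ± 0.07), and trend-removed it was (-0.34 ± 0.05).

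The TRA2 proteins bind purine-rich exon enhancers. TRA2A had 24.0, 19.9 and 26.7 CPM with talazoparib and 30.5, 35.1 and 27.7 CPM in controls. Talazoparib 3 and control 3 nearly met, and the call as lower (-0.40 ± 0.13) was lost without talazoparib 2 (-0.29) or control 2 (-0.34) and trend-removed (0.05 ± 0.09). TRA2B, the better known paralogue, had 160, 134 and 188 CPM with talazoparib and 184, 165 and 170 CPM in controls. Its groups overlapped (-0.10 ± 0.11), and trend-removed it was called higher (0.42 ± 0.10).

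**Figure D2:**
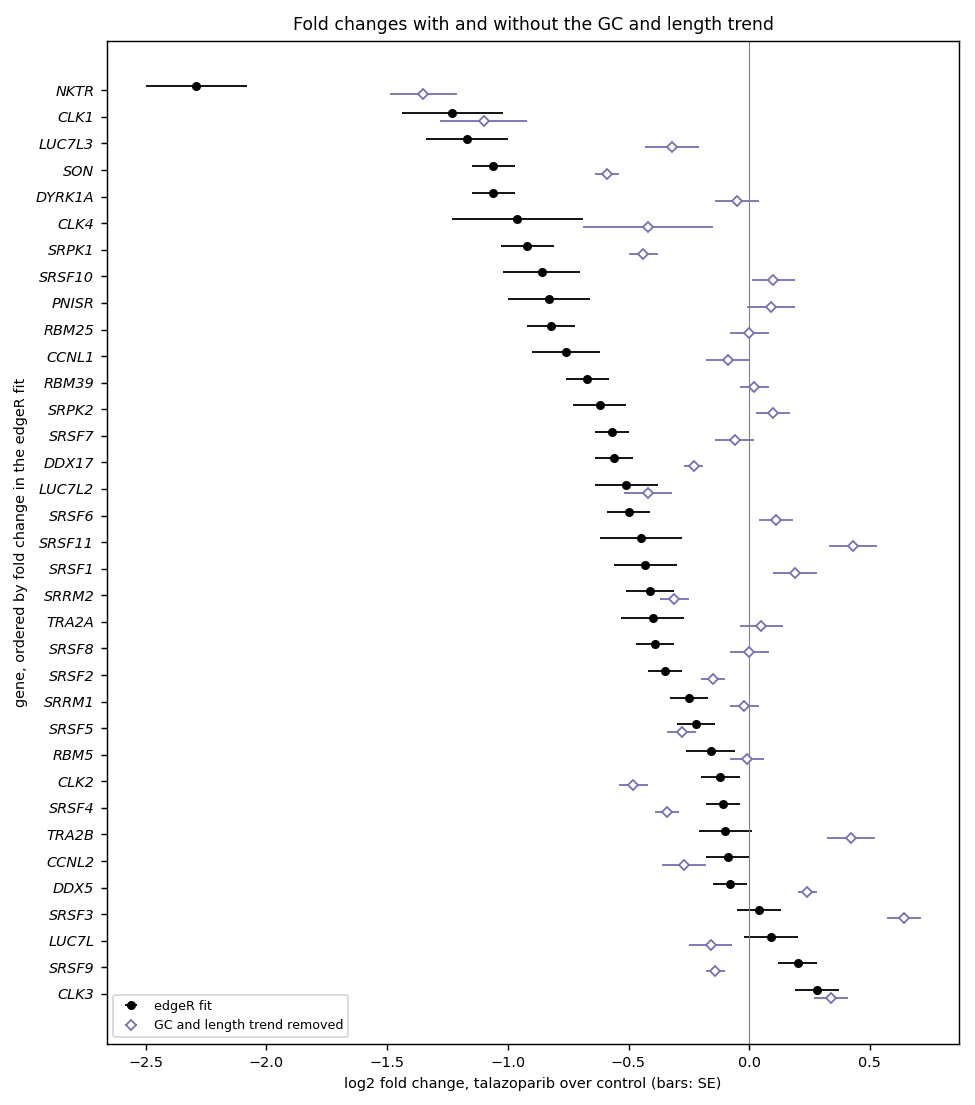
Log2 fold change of talazoparib over control for the 35 genes, ordered by the edgeR fit (filled circles, bars are SE), with the trend-removed value of each gene below it (open diamonds, bars are SE). NKTR, CLK1, SON and SRPK1 stay left of 0 in both fits, while SRSF10, PNISR, RBM25, RBM39 and DYRK1A move to near 0 trend-removed, and SRSF3, SRSF11 and TRA2B move to its right.

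The LUC7-like proteins belong to the U1 particle, which recognises the start of an intron. LUC7L3 had 19.7, 16.2 and 21.0 CPM with talazoparib and 30.4, 49.2 and 48.5 CPM in controls. Control 1 lay between the talazoparib libraries and the other controls; the log2 fold change was -1.17 ± 0.17, and -0.32 ± 0.11 trend-removed, both called. LUC7L2, a paralogue, had 7.45, 8.19 and 7.53 CPM with talazoparib and 10.9, 10.8 and 11.4 CPM in controls. Replicates were close, and the value changed little between the fits (-0.51 ± 0.13, and -0.42 ± 0.10 trend-removed). LUC7L had 26.2, 31.9 and 29.6 CPM with talazoparib and 29.4, 24.3 and 28.5 CPM in controls, with overlapping groups and no call in either fit (0.09 ± 0.11, and -0.16 ± 0.09 trend-removed).

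Of the RNA-binding RBM proteins 2 of 3 were called lower. RBM25, which acts at exon enhancers, had 27.2, 26.9 and 29.5 CPM with talazoparib and 42.7, 54.9 and 49.9 CPM in controls (-0.82 ± 0.10, and 0.00 ± 0.08 trend-removed, not called). RBM39, a relative of the U2AF splice site factors, had 61.3, 60.3 and 70.2 CPM with talazoparib and 90.8, 106 and 110 CPM in controls (-0.67 ± 0.09, and 0.02 ± 0.06 trend-removed, not called). Both were lower in every talazoparib library, with control 1 the lowest control. RBM5, a regulator of splicing of apoptosis genes, had 45.7, 45.4 and 40.7 CPM with talazoparib and 43.6, 50.6 and 53.0 CPM in controls; control 1 lay among the talazoparib libraries (-0.16 ± 0.10), and without it RBM5 was called lower (-0.28). The trend-removed value of RBM5 was -0.01 ± 0.07, not called.

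The DEAD-box RNA helicases DDX5 and DDX17 are close paralogues. DDX17 had 246, 239 and 248 CPM with talazoparib and 327, 379 and 373 CPM in controls, and was called lower in both fits (-0.56 ± 0.08, and -0.23 ± 0.04 trend-removed). DDX5 had 389, 380 and 390 CPM with talazoparib and 383, 420 and 421 CPM in controls. Only control 1 lay within the talazoparib range; the difference was not called (-0.08 ± 0.07), it was called lower without control 1 (-0.16), and trend-removed it was called higher (0.24 ± 0.04). Cyclins L1 and L2 pair with CDK11 kinases and sit in speckles. CCNL1 had 13.4, 12.7 and 14.8 CPM with talazoparib and 18.3, 26.0 and 25.0 CPM in controls, lower in every library (-0.76 ± 0.14) and not called trend-removed (-0.09 ± 0.09). CCNL2 had 74.0, 73.0 and 83.6 CPM with talazoparib and 72.7, 86.3 and 85.9 CPM in controls, with overlapping groups and no call (-0.09 ± 0.09), though trend-removed it was called lower (-0.27 ± 0.09).

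**Figure D3:**
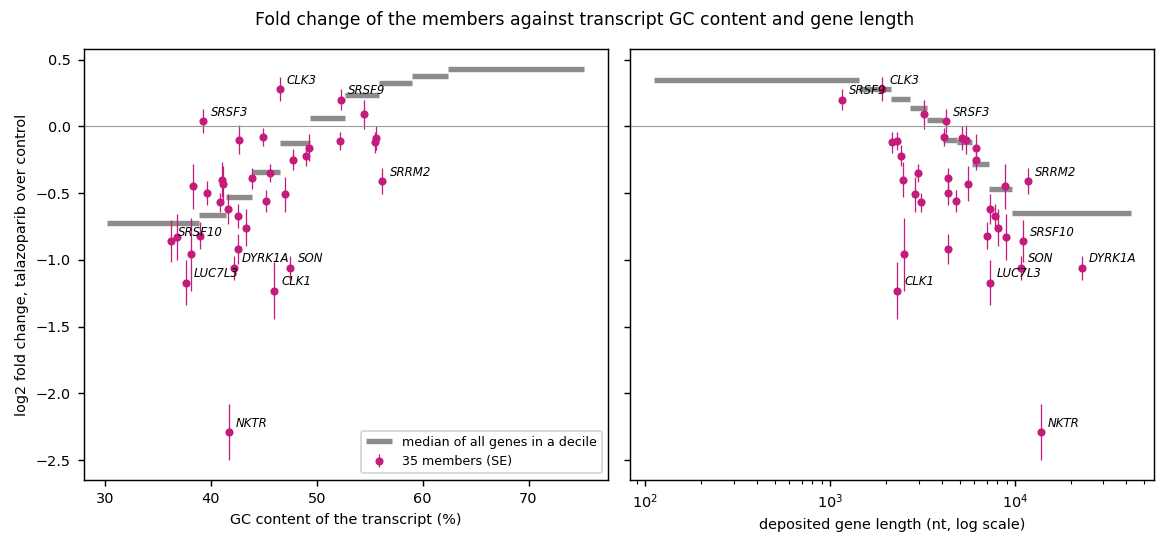
Log2 fold change of talazoparib over control (vertical axis) against transcript GC content in percent and against deposited gene length in nt on a log scale; points are the 35 genes with SE, and grey bars are the medians of all genes in each decile. Bars run from -0.73 at the lowest GC content to 0.43 at the highest. NKTR lies farthest below the bars in both panels, and SRSF3 and CLK3 lie well above them in the GC panel.

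Across the 35 genes the log2 fold change ran with GC content (Spearman's rho 0.54, Pearson's r 0.48) and against log2 length (rho -0.54, r -0.55), as it did over the 13717 genes with both (rho 0.69 and -0.45). Trend-removed values of the 35 ran against GC content (rho -0.42, r -0.29), and with log2 length rho was 0.14 and r 0.02. Over the 13717 genes the trend-removed rho was -0.01 for GC content and 0.01 for log2 length. Trend-removed calls of the 35 are therefore not free of GC content. Without trend removal, the log2 fold change of the 35 also ran with FPKM, since genes at low FPKM in controls had lower values (rho 0.62, r 0.65, n = 35). FPKM is divided by the deposited length, so length enters this relation, which was computed for the 35 genes alone. These points share the same 6 libraries, so the coefficients are descriptions across genes. Per unit of length, levels spanned a wide range: SRSF9 was the most abundant at 293 ± 4.01 FPKM with talazoparib and 268 ± 14.3 FPKM in controls (SD, n = 3 each), and CLK4 and NKTR were the least abundant at 0.368 ± 0.104 and 0.195 ± 0.0366 FPKM with talazoparib and 0.754 ± 0.0676 and 1.01 ± 0.274 FPKM in controls. In controls SRSF2 (108 ± 2.27 FPKM) and DDX5 (102 ± 7.95 FPKM) followed SRSF9 and did not differ beyond their spread, as did SRSF5 (64.4 ± 4.67 FPKM) and SRSF1 (64.3 ± 1.68 FPKM). With talazoparib DDX5 (91.6 ± 3.44 FPKM) stood above SRSF2 (81.1 ± 3.85 FPKM). FPKM rests on the deposited lengths, which are 1152 nt for SRSF9, 2504 nt for CLK4 and 13741 nt for NKTR.

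The annotation of these genes includes transcripts of the kinds that the opening names for SR protein genes, so it is not independent of a choice by function. In GENCODE release 29, 33 of the 35 (94.3%) have at least 1 transcript classed as a target of nonsense-mediated decay, where 39.6% of the 13717 matched genes tested have one, and 30 (85.7%) have a retained-intron transcript, against 54.0%. CLK2 and DYRK1A are the 2 without a decay transcript, and RBM39 has the most, 15. These genes also have more annotated transcripts in all, a median of 15 against 7. The counts are sums per gene, so they do not show which of these transcripts the reads came from. Some loci share bases with a neighbour: on the opposite strand 46.2% of exon bases of SRSF9 lie within exons of GATC and 36.7% of those of SRSF2 within exons of MFSD11, and 56.6% of exon bases of SRSF1 lie within exons of another annotated gene on its own strand, as do 22.9% of those of LUC7L2. On the opposite strand 17.4% of exon bases of RBM5 lie within exons of RBM5-AS1 and SEMA3F-AS1. For SRSF1 and LUC7L2 the opposite-strand shares are 13.2% and 0.9%. The strand setting of the counting is not given in the sources used here, so the counts of SRSF9, SRSF2 and RBM5 are uncertain. For SRSF1 and LUC7L2 the strand setting makes no difference to the bases shared on their own strand. AC015813.2, the gene that shares these bases with SRSF1, is not among the gene symbols of the deposited table. Of the genes that share them with LUC7L2, FMC1 is among those symbols and C7orf55-LUC7L2 is not. The annotation used for counting is not given either, so how reads on the shared bases were counted is not known. The counts of SRSF2 and SRSF8, whose sequences are alike, are uncertain for that reason too.

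Other splicing genes, drawn up as 6 lists, showed 66 of 143 tested lower and 28 higher (median log2 fold change -0.16), and trend-removed 48 lower and 22 higher. The list nearest in kind, 39 further arginine/serine-rich and speckle genes, had 24 lower and 5 higher (median -0.49; trend-removed 14 lower and 1 higher, median -0.10). PNN, the speckle protein pinin, fell to 18.9, 18.8 and 19.3 CPM with talazoparib, against 38.5, 61.4 and 56.5 CPM in controls (-1.46 ± 0.15, and -0.90 trend-removed). SCAF11 (-1.07) and the U2-associated factor U2SURP (-1.35) also fell and SCAF1 (0.46) and RBM10 (0.34) rose; trend-removed, U2SURP (-0.49) was still called, and SCAF11, SCAF1 and RBM10 were not. Of 18 other splicing and transcription kinases and cyclins 10 were lower and 1 higher (median -0.67), and trend-removed 7 were lower and 2 higher. HIPK1 (-1.0), DYRK2 (-1.10) and the transcription elongation kinase CDK12 (-0.96) were lower, and CDK9 (0.21) was higher. The CDK9 call lay at the threshold, and its groups overlapped (109.05 CPM in talazoparib 3, 109.44 CPM in control 1). Trend-removed, HIPK1 (-0.36) and DYRK2 (-0.23) were still called, and CDK12 (-0.20) and CDK9 (-0.11) were not. The long noncoding RNAs of speckles and paraspeckles were the lowest of their list of 7, of which 4 were called lower. MALAT1, a speckle RNA, had 29.2, 15.8 and 28.0 CPM with talazoparib and 78.0, 106 and 94.1 CPM in controls (-1.93 ± 0.21, and -1.09 trend-removed), and NEAT1, the core of paraspeckles, had 71.7, 59.2 and 86.2 CPM with talazoparib and 157, 239 and 224 CPM in controls (-1.51 ± 0.17, and -0.60 trend-removed). TARDBP (-0.56) was lower too, and not called trend-removed (0.09).

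Of 40 spliceosome core genes 17 were higher and 9 lower (median 0.17; trend-removed 7 higher and 12 lower, median -0.01). The helicase gene DHX15 (-1.0 ± 0.10, and -0.58 trend-removed) and SF3B1 (-1.22 ± 0.14, and -0.40), which binds the branch point with the U2 particle, were lower, as was SNRPD1 (-0.58, and 0.04, not called). Of 23 hnRNP genes, RNA-binding proteins that often oppose SR proteins, 12 were lower and 1 higher (median -0.21; trend-removed 8 lower and 6 higher). PTBP3 fell to 57.4, 39.5 and 63.1 CPM with talazoparib, against 130, 161 and 139 CPM in controls (-1.42 ± 0.15, and -0.55 trend-removed), HNRNPH3 (-0.86, and -0.32 trend-removed) and HNRNPA3 (-0.63) were lower, and HNRNPL was higher (0.21) and, trend-removed, lower (-0.12); HNRNPA3 was not called trend-removed (0.12). HNRNPH2, named after its values were seen, was listed at 0 in every library. The annotation used for counting is not given, so this 0 need not mean that its RNA was absent. Of 16 genes of nonsense-mediated decay and the exon junction complex 7 were lower and 4 higher (trend-removed 5 and 5). SMG1, the kinase that starts this decay, had 27.6, 20.8 and 22.4 CPM with talazoparib and 57.5, 98.4 and 87.4 CPM in controls (-1.78 ± 0.18, and -0.87 trend-removed). SMG5 was higher, at 429, 476 and 403 CPM with talazoparib and 297, 260 and 273 CPM in controls (0.66 ± 0.08, and 0.40), and so was UPF1 (0.40, and 0.15). Differences between the 35 genes and these lists were not tested.

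**Figure D4:**
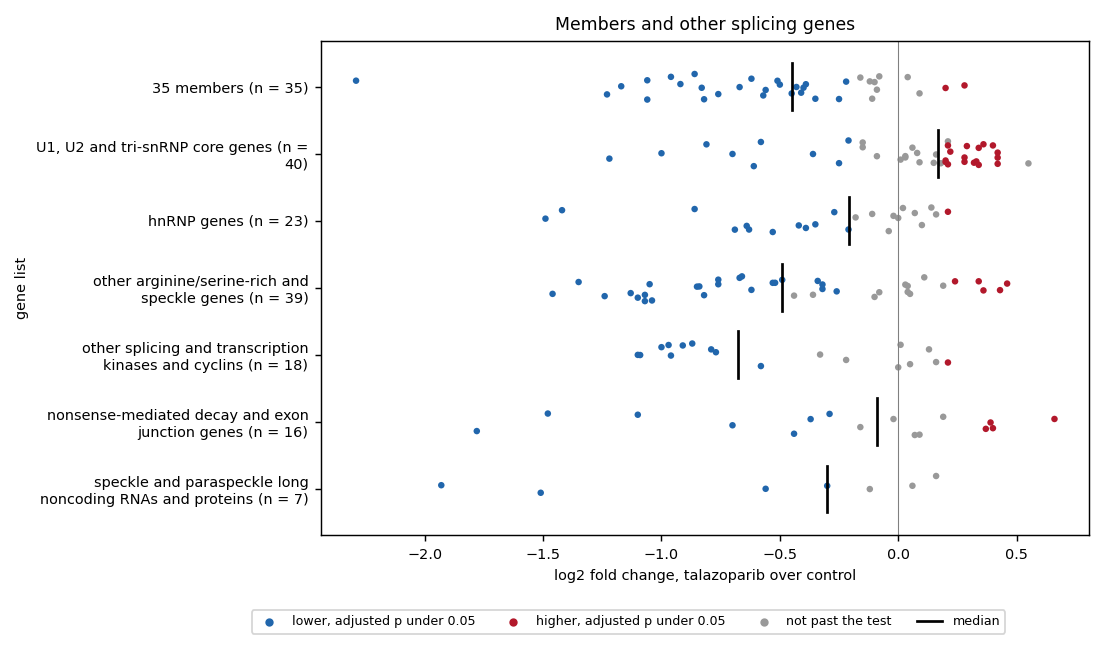
Log2 fold change of talazoparib over control for the 35 genes and the tested genes of the 6 other splicing lists; each point is a gene, blue where called lower, red where called higher and grey where not past the test, and black bars are medians. The medians are lowest for the kinases and cyclins (-0.67) and highest for the spliceosome core genes (0.17), with the 35 genes at -0.45.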

How the data were processed

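RNA-seq of 3 talazoparib and 3 control libraries of DU 145 was used as deposited. The authors' table gave whole-number read counts per gene, and a second deposited table gave FPKM for the same libraries. Per the submitters' processing notes the tools included HISAT2, HTSeq, Cufflinks and Trimmomatic, with the build GRCh38. Versions, gene annotation and strandedness of counting: not given in the sources used here.

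Counts of the 14452 genes passing edgeR's filter (filterByExpr, minimum count 10) were TMM-scaled and tested with edgeR 4.0.16 (quasi-likelihood, R 4.3.3, Benjamini-Hochberg threshold 0.05) over the 6 libraries, with no covariate. In the trend-removed fit an offset per library took out natural splines (5 degrees of freedom each) over GENCODE release 29 GC content and over the log2 gene length recovered from counts and FPKM; 94.9% of tested genes had both. FPKM was used for levels between genes. The scripts were tested on simulated data. Replicate numbers did not pair libraries. Alternatives were RLE and total count scaling, DESeq2 1.42.0, limma-voom and limma on log2 FPKM (limma 3.58.1), other filters, a replicate block, GC or length trends and each library left out.

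The members and all gene lists were chosen with earlier results of these data known. All 35 members are named; from each other list, up to 3 genes with the smallest adjusted p and up to 2 called against the direction of most of the list; some items withheld for evaluation are not reported here. Values per library are given beyond the 2 or 4 extremes of each role group that the rule asks for.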

Additional observations from a re-analysis of the deposited data

How the results depend on the processing

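Without trend removal, 494 of the 525 values of the 35 genes under 15 alternatives kept their call, 23 lost it, 8 gained one and none changed direction among called values. The 25 genes called lower became 14 with the GC and length trend removed, 13 with the GC trend removed and 12 with the replicate block and both trends removed, and were 23 to 26 with 1 library left out. The 2 called higher became 1 under total count scaling, no filter, FPKM with either pseudocount (1 or 0.1) and the replicate block, 5 with both trends removed, with or without the block, 6 with GC removed and 0 with length removed (edgeR), and were 0 to 2 with 1 library left out, 0 without control 2 or control 3. The median of -0.45 became -0.06 with both trends removed, with or without the block, -0.12 with GC and -0.28 with length removed, and ran from -0.57 (without talazoparib 3) to -0.44. Of 8200 genes called in all, 5141 were called with the block and both trends removed, and 6353 to 8549 with 1 library left out. In the other lists the 66 lower became 40 with the block and both trends and 42 with GC removed (62 to 69 with 1 library left out), and the 28 higher became 16 to 34, 16 without control 2 or control 3. The replicate numbers only name libraries: same-numbered deviations correlated at -0.0943, -0.173 and 0.00391. Of the genes named, SRSF5, SRSF9 and HNRNPL were not called with the replicate block alone. With the block and both trends removed, the trend-removed calls of SRSF9 (adjusted p = 0.0584 in edgeR's test), HNRNPL (0.109), SRSF2 and DYRK2 were not held.

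Among named genes called in at least 1 of the fits compared, values that changed sign, on the log2 scale, with both trends removed were SRSF1 0.19, SRSF6 0.11, SRSF8 0.00, SRSF9 -0.14, SRSF10 0.10, SRSF11 0.43, TRA2A 0.05, TRA2B 0.42, SRPK2 0.10, PNISR 0.09, RBM39 0.02, DDX5 0.24, SNRPD1 0.04, HNRNPA3 0.12, HNRNPL -0.12, RBM10 -0.04, CDK9 -0.11 and TARDBP 0.09. The replicate block added to this gave the same values except SRSF11 0.42, TRA2B 0.43, PNISR 0.10 and HNRNPA3 0.11. With GC alone they were SRSF1 0.20, SRSF6 0.20, SRSF7 0.08, SRSF8 0.06, SRSF11 0.27, TRA2A 0.23, TRA2B 0.42, DDX5 0.29, SNRPD1 0.10, HNRNPA3 0.14, HNRNPL -0.04, SCAF1 -0.01, RBM10 -0.05, CDK9 -0.02 and TARDBP 0.13. With length alone they were SRSF9 -0.10, SRSF11 0.03, SRRM1 0.04 and SRRM2 0.22. Of genes called in neither fit, LUC7L (0.09) changed sign with both trends (-0.16) and with GC alone (-0.12) removed, and TRA2B, RBM5 and CCNL2 with length alone. The cause was not tested. Low counts limit CLK4 and CLK1 (332 and 965 counts over the 6 libraries).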
